A study of Mus musculus with 16 samples.

Results

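The proteasome subunit genes of the mouse heart were followed through promoter acetylation. Members were the genes whose symbol begins with Psma to Psmg followed by a digit and that had at least 1 histone H3 lysine 27 acetylation (H3K27Ac) peak within 3 kb of a transcription start. The pattern matched 47 symbols among the 9942 genes with such a promoter peak in any H3K27Ac list. Of these, 45 encode subunits, activators, an inhibitor or assembly factors of the proteasome, with 16 genes of the 20S core (Psma, Psmb) and 29 of its regulators (Psmc to Psmg). The remaining 2, Psmc3ip and Psme3ip1, encode proteins that carry such a name because they bind a subunit or activator, and their values are given apart.

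Chromatin was immunoprecipitated from adult cardiomyocytes of 3-month-old mice, and a peak list was analysed for each library. Des+/+ animals had intact desmin, the intermediate filament protein of muscle, and Des-/- animals lacked it. Both lines were described in the study's methods as homozygous for a GFP transgene driven by the αMHC promoter, on a shared inbred background and used regardless of sex. Hearts were taken without exercise (basal, labelled Non Swim) or after swimming (swim). Chromatin of 5 mice went into the library of each genotype and condition, so each of the 4 H3K27Ac groups had 1 library, no replicate spread could be measured and no difference between groups was tested. H3K27Ac marks active promoters and enhancers, and lamin A/C, the other precipitated protein, lies at the nuclear periphery.

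The 26S proteasome degrades proteins tagged with ubiquitin. Its 20S core is a barrel of alpha rings, which gate the entrance, and beta rings, in which Psmb5, Psmb6 and Psmb7 encode the proteolytic subunits. A 19S cap of ATPases (Psmc) and non-ATPases (Psmd) binds and unfolds substrates, whereas the Psme activators open the core without ATP. In cells exposed to interferon, Psmb8, Psmb9 and Psmb10 replace the constitutive catalytic subunits and form the immunoproteasome. Heart muscle depends on the proteasome to clear damaged sarcomere and filament proteins.

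The height of a peak was the coverage signal deposited for it, a number of reads overlapping at the peak, and the value of a gene in a list was its highest promoter peak. Every H3K27Ac list stopped at a height of 15, so a gene without a promoter peak may still carry the mark below that height. Where 4 values are given below, they follow the order basal Des+/+, basal Des-/-, swim Des+/+, swim Des-/-. The lists held 15757, 16638, 11157 and 10407 peaks. The mean input height at peaks was 5.48 reads in Des-/- swim and between 2.80 and 3.06 in the other 3 lists. Among markers of cell types, promoter peaks were found for 10, 9, 9 and 6 of 10 cardiomyocyte genes, with summed heights of 297, 274, 248 and 132 reads. Endothelial genes had peaks at 7, 7, 5 and 5 of 7 (summed heights 257, 199, 125 and 152 reads), and fibroblast genes at 1, 2, 0 and 0 of 7 (16, 36, 0 and 0 reads). Des, the targeted gene, had promoter peaks of 30, 46, 24 and 37 reads, which does not check the deletion because the altered stretch is not described in the sources used here. None of the 8 leukocyte or 6 smooth muscle and pericyte genes had a promoter peak in any list. The part of depth, input and cell composition in the results below was not tested, and in pooled chromatin a mark lost from some cells and one lowered in all cells cannot be told apart.

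Most proteasome genes were acetylated at the promoter in every group. A promoter peak was present in all 4 lists for 30 of the 45 genes (66.7%, Wilson 95% interval 52.1 to 78.6%), beside 52.9% of all genes with a promoter peak. The interval only just included the background share, and the difference was not tested. Psma4, described below, is not counted here, although a peak over its start was in all 4 lists. With all 47 matched symbols counted, the share was 68.1% (32 of 47). The share was 62.5% for the core (10 of 16) and 69.0% for the regulators (20 of 29). It was 76.6% for cytosolic ribosomal protein genes (49 of 64) and 40.7% for mitochondrial ribosomal protein genes (24 of 59).

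**Figure D1:**
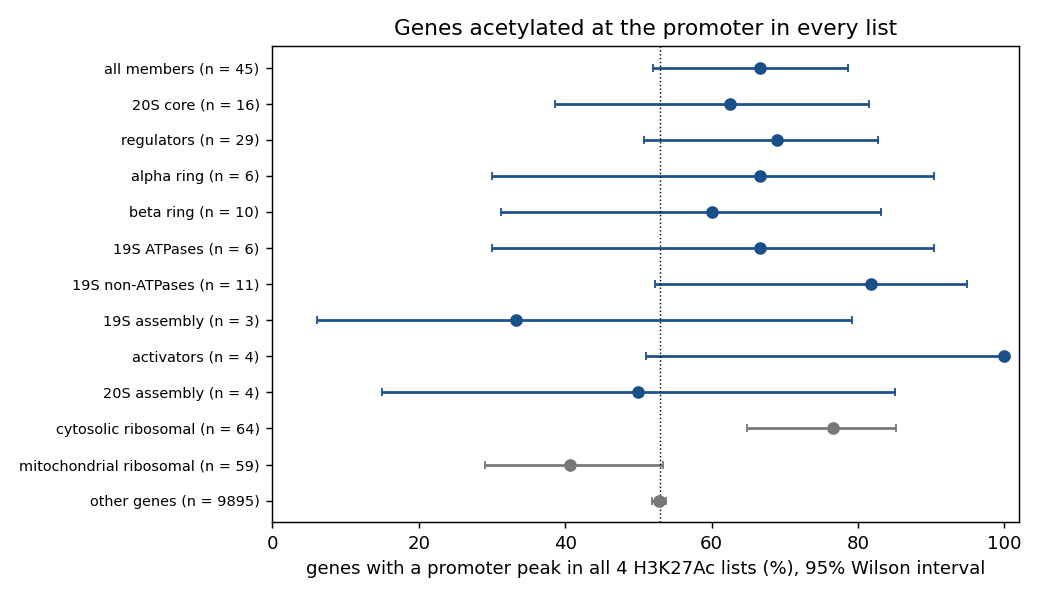
Percentage of genes with a promoter H3K27Ac peak in all 4 lists (x axis), by proteasome class (blue) and for 2 ribosomal sets and the other genes (grey). Bars are 95% Wilson intervals, n is the number of genes, and the dotted line is the background of 52.9%. The intervals of all proteasome classes reach or cross the background, and the activators are at 4 of 4.

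List by list, 43 members had a promoter peak in Des+/+ basal (95.6%, background 87.0%) and 44 in Des-/- basal (97.8%, background 91.5%). In swim there were 34 in Des+/+ (75.6%, background 65.4%) and 33 in Des-/- (73.3%, background 64.9%). The swim lists held fewer members, as they held fewer genes in all. All 15 genes that were not in every list were absent from at least 1 swim list.

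The alpha ring was represented by 6 genes, of which 4 had a promoter peak in every list. Psma3, whose product is a structural alpha subunit, had the highest values, with heights of 54, 47, 47 and 45 reads. Psma6 stood at 37, 37, 31 and 31 reads, and Psma1 at 28, 30, 20 and 19. Psma3 was thus the alpha gene whose unscaled swim and basal heights were nearest to each other as a ratio in both genotypes. Psma7 had 44, 46, 23 and 28 reads. In Psma1, Psma6 and Psma7 both basal libraries were above both swim libraries on unscaled heights, which were lower in swim for most genes. Psma2 (34 and 32 reads in basal) was missing from Des+/+ swim and had 19 reads in Des-/- swim. Psma5 (29 and 28 reads in basal) had 21 reads in Des+/+ swim and was missing from Des-/- swim.

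Psma4 was not matched by symbol, although its promoter was acetylated. A peak over the Psma4 start, at chr9:54950781-54951533 (GRCm38) in Des+/+ basal, was assigned in the deposited annotation to AY074887. Its heights were 27, 24, 23 and 21 reads. Psma8, an alpha subunit of germ cells, and Psmb11, the beta subunit of the thymus, had no peak within 3 kb of a start in any list.

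The constitutive catalytic genes had low promoter peaks. Psmb6, the caspase-like subunit, had the lowest mean scaled height of the 30 members present in every list, with 22 and 18 reads in basal and 15 reads in each swim list, the minimum kept. Psmb5, the chymotrypsin-like subunit and the target of bortezomib, had 26 and 24 reads in basal (Des+/+ and Des-/-) and 16 in Des+/+ swim, and was missing from Des-/- swim. Psmb7, the trypsin-like subunit, had 28, 31, 23 and 26 reads and was present in every list. The catalytic genes therefore lay near or under the median of other genes with a promoter peak, which was 28, 30, 23 and 27 reads.

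Among the immunoproteasome genes, Psmb9 had the highest catalytic promoter peak. Its heights were 41, 58, 25 and 32 reads, higher in Des-/- than in Des+/+ in both conditions before input is considered. The input height at Psmb9 was 2, 5, 3 and 12 reads, and its part in this order was not tested. The starts of Psmb9 and Tap1, an antigen peptide transporter gene, lay 38 bp apart on opposite strands, so the peak could not be assigned to either gene alone. Psmb8, in the same region of the genome, had only 20 and 17 reads in basal and no peak in swim. Psmb10 had 31, 27 and 19 reads and was missing from Des-/- swim. All 5 genes of this form, counting Psme1 and Psme2, had wider basal peaks than the median of other genes, between 1134 and 2004 bp in Des+/+ and between 1090 and 1734 bp in Des-/-. In swim, 2 of the 4 with a peak in Des+/+ and 3 of 3 in Des-/- were wider. Leukocyte markers, whose cells express this form constitutively, had no promoter peak in any list.

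Of the other beta genes, Psmb2 had 45, 52, 37 and 23 reads and Psmb4 44, 49, 38 and 29. For both, Des-/- was higher than Des+/+ in basal and lower in swim. Psmb1 had 25, 30, 21 and 22 reads. Its peak in Des-/- basal was 3055 bp wide with a summit at -1859 bp from the start, at the place of a separate Tbp peak of 28 reads in Des+/+ basal, so the value of 30 is not matched to the other 3. Psmb3 had 16 and 15 reads in basal and was in neither swim list. A higher peak assigned to the neighbour Pcgf2 lay within 3 kb of the Psmb3 start in both basal lists (22 and 24 reads) and in Des+/+ swim (16 reads).

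The 6 ATPase genes of the 19S base, whose products form the ring that unfolds substrates, all had a promoter peak in both basal lists and in Des-/- swim, and 4 of 6 had one in Des+/+ swim. Psmc3 was the highest, at 59, 63, 44 and 39 reads. Psmc1 had 52, 41, 25 and 35 reads and Psmc6 34, 34, 23 and 32, each lowest in Des+/+ swim on unscaled heights. By scaled height Psmc1 was still lowest there, whereas Psmc6 was lowest in Des-/- basal (0.83, beside 0.88 in Des+/+ swim). Psmc4 (24, 34 and 22 reads) and Psmc5 (27, 30 and 26) were missing from Des+/+ swim alone. Together with Psma2, these were the 3 members found in every list but that one (6.67% of members, beside 7.43% of other genes).

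Psmc2, whose product is the ATPase known as Rpt1, differed from the others in the position of its peak. Its heights were 35, 28, 37 and 34 reads, so that its swim values were not lower than in basal. The peak, at chr5:21786259-21787552 in Des+/+ basal, did not cover the deposited start at position 21785283. It covered a second RefSeq start 1464 bp downstream in all 4 lists. In contrast, the peak covered the deposited start for 90.7, 88.6, 88.2 and 90.9% of the members with a peak, compared with 84.9, 85.5, 79.5 and 81.8% of other genes. The median summit of the members lay between 178 and 198 bp downstream of the start, and that of other genes between 176 and 184 bp.

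Among the 11 non-ATPase genes of the 19S lid and base, 9 had a promoter peak in every list. Psmd11, a lid scaffold, was the highest by mean scaled height, with 56, 70, 45 and 39 reads. Psmd12, a further lid subunit, had 56, 58, 40 and 30 reads, and Psmd7, the partner of the deubiquitinase, had 52, 49, 24 and 41. Psmd7 was low in Des+/+ swim only. Psmd2, which encodes the large base subunit Rpn1, was among the lowest, with 18, 22, 18 and 22 reads, and Psmd13 had 28, 28, 20 and 23. Psmd14, the deubiquitinase itself, had 25, 26 and 23 reads and was missing from Des-/- swim.

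Psmd4, the ubiquitin receptor Rpn10, combined a clear basal peak with absence from both swim lists. It had 37 reads in Des+/+ basal (exact Poisson 95% interval 26.1 to 51.0, counting error only) and 33 in Des-/- basal (22.7 to 46.3). The basal peak lay at chr3:95041997-95042604 in Des+/+, and the nearest swim peak was 25725 bp away in Des+/+. In Des-/- the distance was 25572 bp. Of other genes with 30 to 39 reads in basal, 93.4% kept a promoter peak in Des+/+ swim and 83.8% in Des-/- swim. Psmd4 was the only member in this range that lacked a swim peak in both genotypes.

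The 3 genes for 19S assembly chaperones differed in how often they were listed. Psmd5 had a promoter peak in every list, of 30, 35, 16 and 37 reads. Psmd9 and Psmd10 (gankyrin) had a peak in Des-/- basal only, of 16 and 18 reads. Both peaks lay close to the minimum of 15, and their absence elsewhere could not be told from a small loss of height.

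All 4 activator genes had promoter peaks in every list, and all were above the median of other genes in both basal lists, as were 2 of 4 in each swim list. Psme2, which pairs with Psme1 in the interferon-responsive 11S cap, had 74, 98, 58 and 55 reads and was second among all members by mean scaled height. Psme1 had 38, 37, 23 and 19 reads. Psme3, the nuclear activator PA28γ, had 40, 41, 21 and 20, and Psme4, the activator PA200, 45, 51, 34 and 36. For all 4 genes both basal libraries were above both swim libraries on unscaled heights. Most genes were also lower in swim on unscaled heights, with 5721 of 6227 in Des+/+ and 5563 of 6183 in Des-/-. The start of Psme2 lay 621 bp from that of Rnf31 on the opposite strand. Psmf1, which encodes the inhibitor PI31, had 15 and 20 reads in basal and no swim peak.

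The chaperones of 20S assembly covered the whole range of heights. Psmg2 had the highest promoter peak of all members in every list, with 104, 117, 68 and 84 reads. Its start lay 263 bp from that of Cep76, a centrosomal gene on the opposite strand. Psmg2 ranked above 98.6, 98.9, 97.4 and 98.6% of genes with a promoter peak in the 4 lists. Its partner Psmg1 had a single peak of 17 reads, in Des+/+ basal. Psmg3 had 16 and 20 reads in basal and none in swim, and its partner Psmg4 had 21, 31, 20 and 26 reads. The products of each pair act as a dimer, and in each pair 1 gene had a peak in every list and the other in at most 2.

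**Figure D2:**
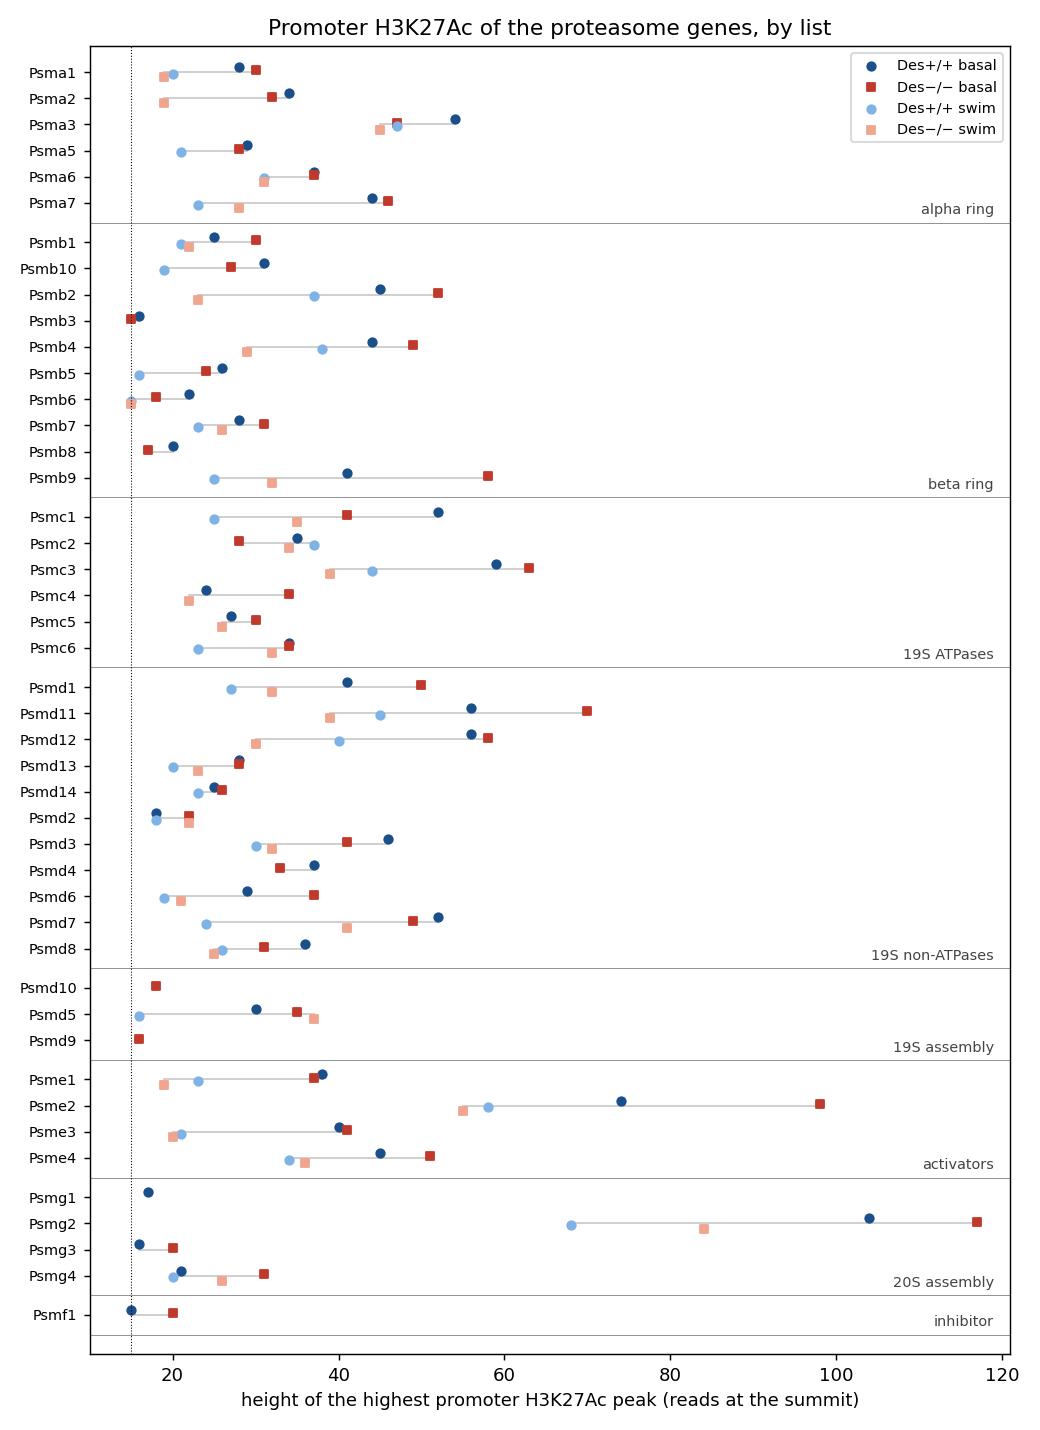
Height of the highest promoter H3K27Ac peak (x axis, reads) of each of the 45 proteasome genes, grouped by role, in the 4 lists (colours). Each marker is 1 library, a missing marker means no promoter peak, and the dotted line is the minimum height of 15. Psmg2 and Psme2 lie to the right of the other members, and most swim markers lie left of the basal ones.

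Members were compared in height with the other genes having a promoter peak. The median height of members was 34, 33.5, 23.5 and 29 reads, and that of other genes 28, 30, 23 and 27 reads. The share of members above the other genes' median was 62.8% (47.9 to 75.6%), 61.4% (46.6 to 74.3%), 50% (34.1 to 65.9%) and 54.5% (38.0 to 70.2%) in that order. Every interval included the share of other genes above their own median, which was 48.7 to 49.8%. Medians were 30, 30.5, 23 and 26 reads for the core and 36, 34.5, 25 and 32 for the regulators. Cytosolic ribosomal protein genes had 36.5, 42, 27 and 32.5 reads, and mitochondrial ones 24, 23.5, 19 and 21.0.

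**Figure D3:**
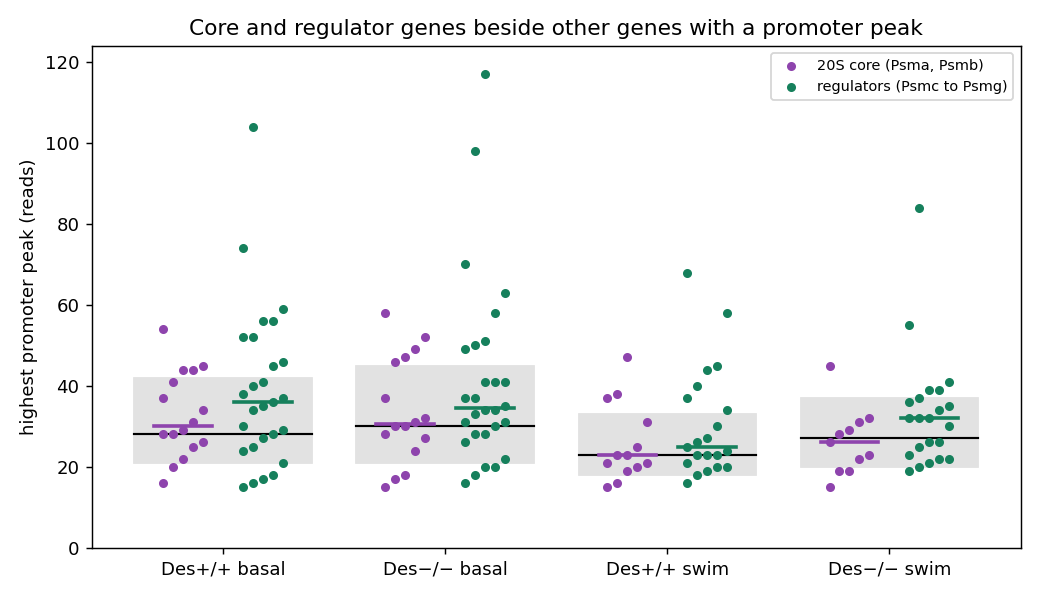
Height of the highest promoter peak (y axis, reads) of core and regulator genes (points) in each list, with the class medians (coloured bars). Grey boxes span the middle quartiles of the other genes and the black lines their medians of 28, 30, 23 and 27 reads. Most members lie within the range of the other genes.

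Peaks of the members were of ordinary width. Median widths of members were 1047 bp, 1103.5 bp, 793.5 bp and 972 bp, compared with 1037, 1079, 887 and 926 bp for other genes. The share wider than the other genes' median was 51.2, 56.8, 35.3 and 51.5%, and all 4 intervals held 50%. A second promoter peak was rare among members, at 3 of 43 genes in Des+/+ basal (6.98%), beside 23.0% of other genes. The input height had a median of 3 reads at members in 3 lists and of 7 in Des-/- swim, beside 3 and 6 at other genes.

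The starts of 9 members (20%, Wilson interval 10.9 to 33.8%) lay within 1 kb of the start of a coding gene on the opposite strand, compared with 13.9% of other genes. These were Psma2 with Mrpl32, Psma7 with Ss18l1, Psmb9 with Tap1, Psmc2 with Dnajc2, Psmc5 with Ftsj3, Psmd10 with Atg4a, Psmd13 with Sirt3, Psme2 with Rnf31 and Psmg2 with Cep76. Distances ran from 32 bp (Psmc2) to 621 bp (Psme2). A peak over both starts of such a pair cannot be assigned to 1 of the genes, whereas the Psmc2 peak lay downstream of the shared pair of starts, as described above. Beyond the promoter, Psma3 had a peak at chr12:70967448-70969957 in Des+/+ basal, at a deposited distance of -4664 bp. It was higher than the promoter peak, with 64 reads in Des+/+ basal and up to 62, 50 and 51 reads in the other 3 lists.

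Promoter sequences were available for 37 members within 500 bases of the deposited start (RefSeq, GRCm38.p6, 250 bases before to 50 after the start). No entry was used for Psmb1, Psmb2, Psmb7, Psmb10, Psmc3, Psmd3, Psmd7 and Psmg2. All of these but Psmb10 had a promoter peak in all 4 lists, and Psmg2 was the highest member. Of the 37 members with a sequence, 23 were in all 4 lists, beside 30 of all 45 members. Each of 5 motifs was searched on both strands. An exact match is a description of letters and not a bound site.

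The nuclear respiratory factor 1 motif GCGCANGCG occurred in 6 of 37 members (16.2%), as in 16.2% of the other genes with a promoter peak and 6.25% of all promoters in the table. Of these 6, only Psma3 had a peak in all 4 lists, or 16.7% (Wilson interval 3.01 to 56.4%), whereas 22 of the 31 members without the motif did (71.0%, 53.4 to 83.9%). The intervals overlap and the difference was not tested. The median height in Des+/+ basal was 26 reads for members with the motif and 35 without it. Among other genes, 56.4% with the motif and 52.6% without it were in all 4 lists, so that other genes did not show the members' order. Psma2, Psmc4 and Psmc5, the members missing from Des+/+ swim alone, all held it, as did Psmd14 and, downstream of its start, Psmg1. Psma2, Psmc4 and Psmc5 were grouped by their peaks in these same data, and the motif was chosen after heights were seen. Their sharing of the motif is therefore a description, and a relation to swim was not tested. The 200 bases before the start are shown for Psma2, Psmc4, Psmc5, Psmd14 and Psma3, with the motif in capitals. In Psmc5 and Psmd14 the match is on the opposite strand, so the capitals are its reverse complement. In Psma2, matches on the 2 strands overlap in the second capital stretch. The stretches are chr13:14613042-14613241 (plus strand), chr7:28050093-28050292 (minus strand), chr11:106255985-106256184 (plus strand), chr2:61711494-61711693 (plus strand) and chr12:70974423-70974622 (plus strand), each written 5′ to 3′ along its gene.
Psma2: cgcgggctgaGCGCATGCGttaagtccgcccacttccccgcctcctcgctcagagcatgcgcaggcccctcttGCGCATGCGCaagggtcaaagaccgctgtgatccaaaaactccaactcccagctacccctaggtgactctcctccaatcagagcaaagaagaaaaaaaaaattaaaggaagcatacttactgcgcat
Psmc4: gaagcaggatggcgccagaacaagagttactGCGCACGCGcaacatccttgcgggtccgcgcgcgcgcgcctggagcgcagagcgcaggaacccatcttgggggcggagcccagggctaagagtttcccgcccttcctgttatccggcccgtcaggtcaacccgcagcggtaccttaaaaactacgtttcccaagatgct
Psmc5: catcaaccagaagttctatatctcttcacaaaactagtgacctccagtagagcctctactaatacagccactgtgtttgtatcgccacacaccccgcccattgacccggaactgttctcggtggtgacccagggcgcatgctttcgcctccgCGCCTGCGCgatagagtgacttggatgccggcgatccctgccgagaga
Psmd14: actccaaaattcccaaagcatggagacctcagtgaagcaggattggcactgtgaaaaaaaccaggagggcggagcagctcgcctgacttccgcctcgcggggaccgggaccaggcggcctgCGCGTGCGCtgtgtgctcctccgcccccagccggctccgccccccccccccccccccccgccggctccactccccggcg
Psma3: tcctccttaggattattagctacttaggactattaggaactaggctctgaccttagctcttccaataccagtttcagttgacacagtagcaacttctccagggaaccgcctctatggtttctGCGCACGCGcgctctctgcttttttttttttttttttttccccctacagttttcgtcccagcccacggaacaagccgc

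The antioxidant response element core is TGACNNNGC, and the factors Nfe2l1 and Nfe2l2 bind it in separate heterodimers. This motif occurred in 16.2% of members (6 of 37), 15.1% of other genes and 12.4% of all promoters. The members were Psmb5, Psmb6, Psmc6, Psmd9, Psmd12 and Psme4. It lay wholly within the 100 bases before the start in the catalytic genes Psmb5 and Psmb6 and in Psmd9, and ran across the start in Psme4. Psmb5, Psmb6 and Psmd9 are shown because 2 of them encode active sites (capitals, the motif). They lie at chr14:54617996-54618095 (minus strand), chr11:70525257-70525356 (plus strand) and chr5:123228090-123228189 (plus strand).
Psmb5: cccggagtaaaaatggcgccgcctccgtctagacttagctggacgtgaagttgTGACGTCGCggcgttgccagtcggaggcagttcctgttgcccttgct
Psmb6: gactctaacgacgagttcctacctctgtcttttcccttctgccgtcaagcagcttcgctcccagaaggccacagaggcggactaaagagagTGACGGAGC
Psmd9: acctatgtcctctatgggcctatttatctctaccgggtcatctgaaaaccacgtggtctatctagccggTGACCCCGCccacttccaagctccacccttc

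The ETS motif ACTTCCG was more frequent in members than in other genes beyond the counting interval. It was present in 35.1% of members (13 of 37, 21.8 to 51.2%), 15.8% of other genes and 6.42% of all promoters. These members include Psmc2, whose match lies before the start that its peak does not cover. Of the 13, 10 had a peak in all 4 lists (76.9%, 49.7 to 91.8%), beside 13 of the 24 members without the motif (54.2%, 35.1 to 72.1%). The intervals overlap and the difference was not tested. The median height in Des+/+ basal was 36 reads for members with the motif and 29.5 without it. Among other genes, 57.6% with the motif and 52.4% without it were in all 4 lists, with median heights of 31 and 28 reads. The motif is shown in capitals in the 100 bases before the start of Psmc1, which holds 2 matches, Psmd6, Psmd8 and Psmd12, at chr12:100110102-100110201 (plus strand), chr14:14120946-14121045 (minus strand), chr7:29180674-29180773 (minus strand) and chr11:107479428-107479527 (plus strand). In Psmd6 the match is on the opposite strand.
Psmc1: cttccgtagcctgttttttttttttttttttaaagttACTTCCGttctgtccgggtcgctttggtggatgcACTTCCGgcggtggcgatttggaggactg
Psmd6: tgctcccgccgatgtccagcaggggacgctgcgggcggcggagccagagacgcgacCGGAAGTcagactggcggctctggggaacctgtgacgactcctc
Psmd8: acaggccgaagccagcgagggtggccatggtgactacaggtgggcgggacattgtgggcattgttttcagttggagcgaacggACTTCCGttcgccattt
Psmd12: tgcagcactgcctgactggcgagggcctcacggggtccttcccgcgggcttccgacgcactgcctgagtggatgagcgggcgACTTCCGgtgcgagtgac

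The interferon-stimulated response element core (GAAA, any 2 bases, GAAA) was found in 13.5% of members (5 of 37, 5.91 to 28.0%), 2.80% of other genes and 3.44% of all promoters. Like the ETS motif, it was thus more frequent in members than in other genes beyond the counting interval. The 5 were Psmb3, Psmd4, Psmd9, Psme1 and Psmg4. The stretch before Psmd4, the member with a clear basal peak and no swim peak, is shown with the match (opposite strand) in capitals, at chr3:95042615-95042714 (minus strand). The CCAAT box occurred in 32.4% of members and 38.1% of other genes.
Psmd4: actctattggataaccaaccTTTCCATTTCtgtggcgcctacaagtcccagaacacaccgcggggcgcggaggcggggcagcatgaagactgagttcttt

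Genotypes were compared in basal cardiomyocytes by dividing each height by the median of the genes present in all 4 lists, which was 38, 41, 26 and 29 reads. In basal, 42 members had a peak in both genotypes, and their scaled heights were close. Of these, 18 were higher and 24 lower in Des-/- (median log2 ratio -0.05, beside 0.01 for other genes). The direction turned without scaling, with 24 higher and 15 lower (median log2 0.06), and with scaling by the median of all peaks 24 of 42 were higher. None was at least 1.5-fold higher (background 3.03%) or at least 1.5-fold lower (background 2.87%). The extremes were Psmg4 (log2 0.45, 21 reads in Des+/+ and 31 in Des-/-) and Psmc1 (log2 -0.45, 52 and 41 reads). Psmd9 and Psmd10 were present in Des-/- alone (2 of 45, 4.44%, background 10.7%) and Psmg1 in Des+/+ alone (1 of 45, 2.22%, background 6.05%).

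By role, all 6 alpha genes had lower scaled heights in Des-/- basal, with log2 ratios between -0.31 (Psma3) and -0.01 (Psma1). On unscaled heights 2 of them were higher, 3 lower and 1 equal, so that direction rested on the scaling. The core as a whole had 5 higher and 11 lower genes (median log2 -0.13), and the regulators 13 and 13 (median log2 0.01). Of the 4 chaperones of 20S assembly, Psmg2, Psmg3 and Psmg4 were higher in Des-/- on scaled and unscaled heights, whereas Psmg1 had a peak in Des+/+ alone. Of all genes with both peaks, 50.8% were higher in Des-/- by scaled height. The quartiles of the log2 ratio over other genes were -0.18 and 0.21.

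After swimming, 30 members had a peak in both genotypes, with 12 higher and 18 lower in Des-/- (median log2 -0.08, beside 0.02 for other genes). Without scaling 16 were higher and 12 lower (median log2 0.07), and with the input height subtracted 8 of 30 were higher. Psmd5 was 2.07-fold higher in Des-/- (log2 1.05), with 16 reads in Des+/+ (Poisson interval 9.15 to 26.0) and 37 in Des-/- (26.1 to 51.0). The input height at Psmd5 was 2 reads in the Des+/+ list and 12 in the Des-/- list, and its part in that value was not tested. Psmd7 was 1.53-fold higher (log2 0.62), with 24 and 41 reads. These were the 2 members at least 1.5-fold higher (6.67%, background 3.64%). Psmb2 was 1.79-fold lower (log2 -0.84), with 37 reads in Des+/+ (26.1 to 51.0) and 23 in Des-/- (14.6 to 34.5), and was the only member past that fold (3.33%, background 3.44%).

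Psma2, Psmc4 and Psmc5 had a swim peak in Des-/- alone (3 of 37, 8.11%, background 13.8%). Psma5, Psmb5, Psmb10 and Psmd14 had one in Des+/+ alone (4 of 37, 10.8%, background 14.5%). Their heights where present ran from 16 to 26 reads, near the minimum of 15. The 4 activators were all lower in Des-/- swim by scaled height, with log2 ratios from -0.43 (Psme1) to -0.08 (Psme4). On unscaled heights 1 of the 4 was higher. By scaled height, 52.6% of all genes with both swim peaks were higher in Des-/-.

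Swim was then compared with basal in each genotype. Heights in the swim lists were lower for nearly all genes, with a median log2 ratio of unscaled heights over all genes of -0.50 in Des+/+ and -0.45 in Des-/-. The scaled ratios remove this shift. In Des+/+, 34 members had both peaks, of which 19 were higher and 15 lower in swim after scaling (median log2 0.06, beside 0.05 for other genes). Without scaling 1 was higher and 32 lower. Psmc2 was at least 1.5-fold higher (1 of 34, 2.94%, background 5.54%), with a scaled ratio of 1.55 from 35 reads in basal and 37 in swim. None was at least 1.5-fold lower (background 2.06%). The next largest ratios were those of Psmd7 (log2 -0.57, 52 and 24 reads), Psmd2 (0.55, 18 and 18), Psmc1 (-0.51, 52 and 25) and Psmg4 (0.48, 21 and 20).

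In Des-/-, 33 members had both peaks, of which 17 were higher and 16 lower after scaling (median log2 0.02, beside 0.05 for other genes), and 2 higher and 30 lower without it. Psmc2 was again at least 1.5-fold higher (1 of 33, 3.03%, background 5.56%), at 28 reads in basal and 34 in swim, a scaled ratio of 1.72. Psmb2 was 1.60-fold lower (log2 -0.68, background 1.78%), from 52 reads in basal to 23 in swim. All 4 activators had lower scaled heights in swim, with log2 ratios of -0.54 for Psme3, -0.46 for Psme1, -0.33 for Psme2 and -0.003 for Psme4. In Des+/+ these ratios were -0.38, -0.18, 0.20 and 0.14 in the same order. Of all genes with both peaks, 56.8% were higher in swim by scaled height in Des-/- and 56.3% in Des+/+. Psmd5 (log2 0.58, 35 and 37 reads) and Psmd2 (0.50, 22 and 22) completed the 5 largest ratios. The swim comparisons share the basal and swim libraries with the genotype comparisons, so these values are not independent of those above.

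**Figure D4:**
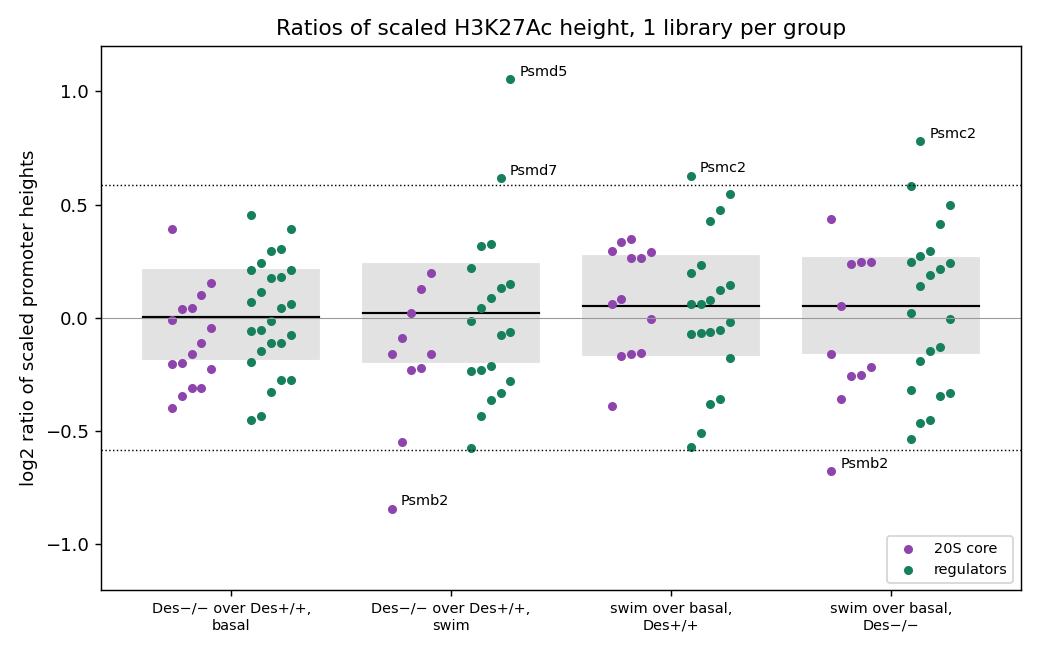
Log2 ratio of scaled promoter heights (y axis) of core (purple) and regulator (green) genes with a peak in both lists, for the 4 comparisons. Grey boxes span the quartiles of other genes, black lines are their medians, and dotted lines mark 1.5-fold. Labelled are Psmd5, Psmd7, Psmb2 and Psmc2, the members past 1.5-fold.

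Loss of a promoter peak in swim was counted separately, for members and background alike over genes with a promoter peak in either list of the pair. In Des+/+, 9 of 43 members had a peak in basal alone (20.9%, 11.4 to 35.2%, background 27.1%), and no member had one in swim alone (background 3.13%). In Des-/-, 11 of 44 had one in basal alone (25%, 14.6 to 39.4%, background 31.1%), and again no member had one in swim alone (background 2.88%). No swim peak assigned to any gene overlapped the basal peak of a member that was lost. Psmb3, Psmb8, Psmd4, Psmf1 and Psmg3 were in both basal lists and in neither swim list. That pattern held for 11.1% of members and 12.2% of other genes.

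The lost peaks had under 30 reads in basal, with the exception of Psmd4 and Psma2. All 16 members with at least 40 reads in basal kept a peak in Des+/+, as did all 16 in Des-/-, compared with 98.7 and 97.6% of other genes. Of members with 15 to 19 reads, 1 of 5 kept a peak in each genotype (20%), beside 26.7 and 21.7% of other genes. Between 20 and 29 reads, 10 of 13 kept one in Des+/+ (76.9%, others 65.1%) and 3 of 9 in Des-/- (33.3%, 12.1 to 64.6%, others 54.8%). Between 30 and 39 reads, 7 of 9 kept one in Des+/+ (77.8%, 45.3 to 93.7%, others 93.4%) and 13 of 14 in Des-/- (92.9%, others 83.8%). In every band the members' interval included the share of other genes, in Des+/+ at 30 to 39 reads narrowly.

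**Figure D5:**
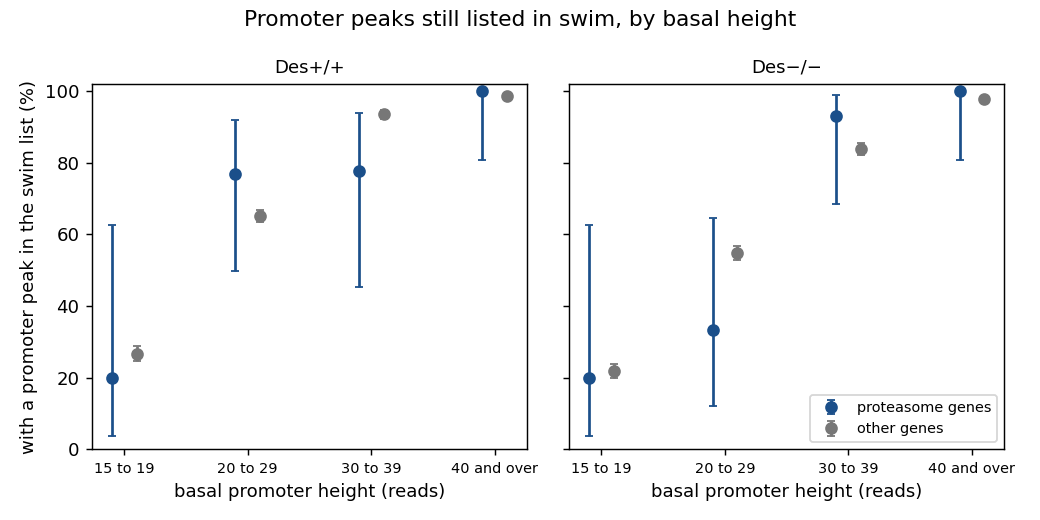
Percentage of genes with a promoter peak in the swim list (y axis) by their height in the basal list of the same genotype (x axis, reads), for proteasome genes (blue) and other genes (grey), with 95% Wilson intervals. Both sets run from 20 to 27% at 15 to 19 reads to over 97% at 40 reads and over.

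Genes that act with the proteasome were read from a separate list of 31. Of these, 28 had a promoter peak and 21 had one in all 4 lists (75%). Nfe2l1, the factor that restores proteasome genes when the proteasome is inhibited, had 38, 57, 26 and 42 reads, higher in Des-/- than in Des+/+ in both conditions (log2 0.48 in basal and 0.53 in swim, scaled). Ddi2, the protease that activates it, had 30, 37, 31 and 29 reads, and the related factor Nfe2l2 82, 79, 59 and 68. Pomp, the maturation factor of the 20S core, had 66, 78, 52 and 51 reads, and Akirin2, which carries proteasomes into the nucleus, 25, 32, 23 and 32.

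The 19S receptor Adrm1 had 57, 66, 29 and 44 reads and the small lid subunit Sem1 44, 43, 33 and 31. The deubiquitinases bound to the 19S cap were lower: Usp14 had 21 and 17 reads in basal and Uchl5 28 and 15, and neither had a swim peak. Uchl5 was lower in Des-/- basal by a scaled log2 ratio of -1.01. Ube3c and Uba6 were also in the basal lists only. Ubqln2 had a peak in Des-/- basal alone, and Ubqln4 had one in Des+/+ basal and Des-/- swim. Paaf1, Ufd1 and Rps27a had none.

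Psmc3ip had 41, 34, 26 and 28 reads and Psme3ip1 31, 54, 22 and 25. Psme3ip1, which encodes a protein that binds the activator Psme3, was 1.61-fold higher in Des-/- basal by scaled height, a fold that no proteasome gene reached in that comparison.

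The lamin A/C lists held 188, 831, 635 and 536 peaks. None of them was annotated to a proteasome gene, and none overlapped the annotated span of one.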

How the data were processed

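ChIP-seq of 16 samples (8 precipitated, 8 inputs) was analysed from the peak lists of the precipitated libraries. Per the labels and the study's methods, single-end reads were aligned by the authors with Bowtie2 2.4.4 (default options) to GRCm38 (mm10), converted with SAMtools 1.13, and peaks were called per library against its input with in-house scripts and annotated with ChIPseeker 1.36.0. Duplicate removal and input scaling were not given in the sources used here. The deposited peak height and input height are a coverage signal in reads, and the deposited distance to the start is a score in bp. The authors' fold change and p-value columns were not used.

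The value of a gene was the highest of its peaks within 3000 bp of a start. Scaled height was height divided by the median of genes with a promoter peak in all 4 H3K27Ac lists. Wilson and exact Poisson 95% intervals cover counting error only, and exact library depth is unknown. With 1 library per group no test between groups was made. Python 3.11.15, pandas 2.3.3, numpy 2.4.6, SciPy 1.17.1 and matplotlib 3.10.9 were used, and the counting was tested on simulated lists. Members and gene lists were chosen with earlier results of these data known. The height bands, motifs, printed sequences and the 1 kb limit for opposite starts were chosen after heights were seen.

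Named genes were the catalytic, activator, inhibitor, chaperone and ATPase genes, members missing from a list, the 5 highest and 5 lowest by mean scaled height, members past 1.5-fold between genotypes, the 5 largest ratios in each swim comparison and fixed partners. Other members complete their role. The values of 1 partner are not reported here.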

Additional observations from a re-analysis of the deposited data

Results flagged for a closer look

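Psmb2 and Psmd7 were singled out because their genotype ratio had opposite directions in the 2 conditions, with at least 1 of them past 1.5-fold. With 1 library per group the difference was not tested. The share of all genes that meet this rule is not given here. In swim, 3.64% of all genes with both peaks were at least 1.5-fold higher in Des-/- and 3.44% at least 1.5-fold lower. For Psmb2 the scaled log2 ratio of Des-/- to Des+/+ was 0.10 in basal and -0.84 in swim, and that of swim to basal was 0.27 in Des+/+ and -0.68 in Des-/-. The input height at Psmb2 was 2 reads in both basal lists, 3 in Des+/+ swim and 10 in Des-/- swim. For Psmd7 the ratio of Des-/- to Des+/+ was -0.20 in basal and 0.62 in swim, with an input height of 3, 3, 3 and 7 reads. Both rest on 1 peak per list, and the part of the higher input of the Des-/- swim library was not tested.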

How the results depend on the processing

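Of 103 alternative values, 84 kept within the counting interval of the reported share or within 1.5 times the reported count. With a height of at least 30 reads required, 20% of members were in all 4 lists. With widths summed over promoter peaks, 40.9% of members were wider than the other genes' median in Des-/- basal. The share higher in swim was 2.94% in Des+/+ and 6.06% in Des-/- without scaling, and 14.7% and 6.06% when heights were scaled by the median of all peaks.

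Counts below include members past 1.5-fold and members in 1 of the lists alone. For genotype in basal, members lower or missing in Des-/- were 1 as reported and 2 with a height of at least 20 or a distance of 1000 bp. For genotype in swim, they were 5 as reported and 9 with the input height subtracted, an alternative added after seeing the data. For swim in Des+/+, members higher were 1 as reported, 0 without scaling, at a ratio of 2 or at 1000 bp, and 2 with the input subtracted. Members lower were 9 as reported and 22 without scaling. For swim in Des-/-, members higher were 1 as reported, 0 without scaling, at a ratio of 2 or at 1000 bp, and 2 with a height of at least 20. Members lower were 12 as reported and 26 without scaling. The swim lists are lower as a whole, which the scaling removes, and the other causes were not tested. The other alternatives added after seeing the data (all matched symbols, the 3 lists without Des-/- swim and, for the comparisons between lists, any peak near the own start) moved no value past these limits. No paired analysis was possible because each group had 1 library and the results come from no test. Leaving out a replicate was not possible either. Depth is unknown, and its part in missing peaks was not tested.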
